A study of Cucumis sativus with 12 samples.

Results

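A set of 53 genes without an informative description had transcript levels in leaves of cucumber (Cucumis sativus) that stood far lower in cold than before it. They were taken from the 24317 genes of the deposited table, of which 10054 have a blank description or one that says hypothetical, uncharacterized, unknown or unnamed protein. Members were selected on their FPKM: a gene was taken when its mean at 0 h of cold was at least 20 FPKM and when that mean plus 1, divided by its lowest mean at 3, 12 or 24 h plus 1, was at least 8. Genes that also stood at least 8-fold above 0 h at another cold duration were left out. FPKM counts the fragments of a gene relative to its transcript length and to the size of the library, so that levels can be set side by side between genes. Of 1253 undescribed genes at or above the 0 h level, the 53 members made up 4.23%. Among described genes at that level, 94 of 3552 met the same limits, which is 2.65%. The members' descriptions read uncharacterized for 28, hypothetical for 21 and nothing for 4.

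All 12 libraries came from seedlings sprayed with chitosan oligosaccharide (COS, short chains of glucosamine from chitin, used to prime plant defences) at 50 mg/L. The plants then spent 24 h at 28 °C by day and 18 °C by night with 12 h of light, and were moved to 12 °C by day and 6 °C by night for 0, 3, 12 or 24 h, with 3 libraries per duration. Fully expanded leaves were taken. The 0 h libraries thus come from sprayed plants that saw no cold, and plants sprayed with water were not analysed here. Time since the spray moves with the duration of cold and cannot be told apart from it. The labels give no clock time of sampling, so the daily clock and the cold cannot be told apart between durations at different hours of the day. Nothing in the labels states that the 3 libraries of a duration came from separate plants, and no cultivar is named in them.

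Genes of this kind are predicted from the genome sequence and carry no informative name in the annotation, although some hold a term or resemble an enzyme family. Cucumber is a plant of warm climates whose leaves are harmed by chilling above freezing. In chilled leaves the level of a transcript reflects both how fast it is made and how fast it is broken down, and many transcripts also follow the daily clock. In a whole leaf, fewer cells of a type and less RNA per cell cannot be told apart. The rule read the FPKM means of all 4 durations, so every comparison with 0 h is a description here and carries no test. No sequence of a member was in the sources used here, so none is shown.

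Totals ran from 62.7 to 81.6 M units of estimated counts per library (M, 10 to the power of 6), and libraries of 1 duration correlated across genes at r = 0.966 to 0.993. Transcripts of leaf mesophyll were abundant in all 12 libraries: 23 genes for Rubisco small subunits, chlorophyll-binding proteins and Rubisco activase summed to 32290 to 34050 FPKM at 0 h, 44750 to 45620 at 3 h, 53710 to 58150 at 12 h and 28140 to 32170 at 24 h. Both root markers found stayed under the level for testing. The 3 libraries of 24 h differed more among themselves than those of other durations. The median coefficient of variation of the members was 6.32% at 0 h, 9.69% at 3 h, 12.7% at 12 h and 31.3% at 24 h. At 24 h it was 24.4% for the described genes under the same limits and 14.7% over all genes tested.

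The members were mostly lowest at the end of the time course. Of the 53, 41 had their lowest mean at 24 h, 7 at 12 h and 5 at 3 h. The median member stood at 37.9% of its 0 h mean at 3 h, at 15.8% at 12 h and at 7.31% at 24 h. The 94 described genes under the same limits had medians of 49.6%, 16.1% and 6.89% at these durations. The 1200 other undescribed genes at the 0 h level had medians of 87.8%, 80.4% and 75.3%. The limits set these genes apart from the members by their fall, so nothing is read from comparing their levels. Means went down at every step of the time course in 36 members (67.9%), as they did in 72.3% of the 94 described genes and 20.3% of the other undescribed genes. All libraries of a cold duration lay below all 0 h libraries for 50 members at 3 h, for 53 at 12 h and for 51 at 24 h. The same held for 76, 93 and 92 of the 94 described genes under the same limits and for 34.9%, 40.1% and 41.0% of all genes tested, and the limits themselves ask for such a gap, so nothing is read from these counts. The 8-fold limit was met at 3 h by 7 members, at 12 h by 18 and at 24 h by 43. It was met at 1 duration by 39 members, at 2 by 13 and at all 3 by 1, CsaV3_4G005060.

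**Figure D1:**
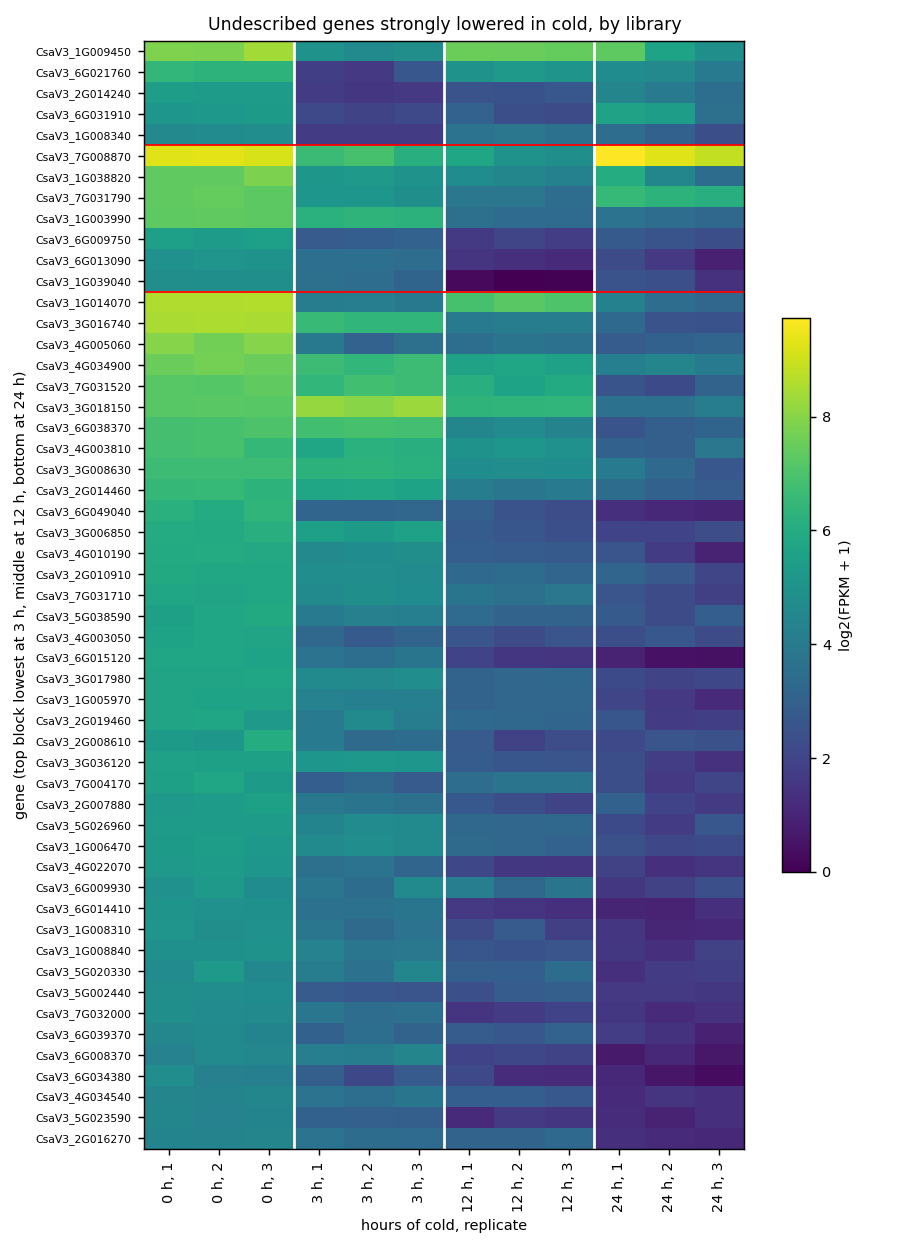
Level of each of the 53 genes (rows) in each of the 12 libraries (columns, ordered by hours of cold), as log2(FPKM + 1) in colour. Dark cells are low levels: they lie in the 24 h columns for the bottom block of 41 genes, in the 12 h columns for the middle block of 7 and in the 3 h columns for the top block of 5.

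**Figure D2:**
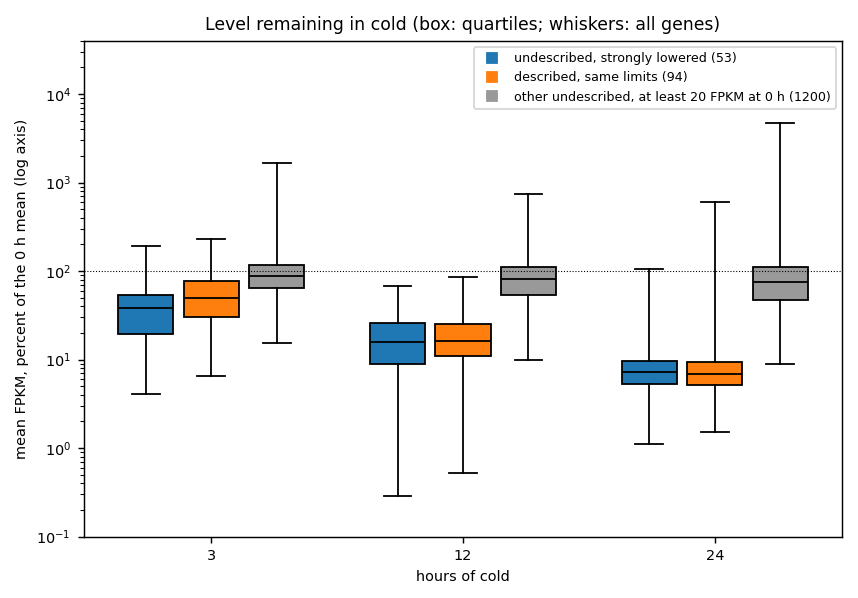
Mean FPKM at 3, 12 and 24 h as a percentage of the 0 h mean, on a log axis, for the 53 members, the 94 described genes under the same limits and the 1200 other undescribed genes at the 0 h level. Boxes are quartiles and whiskers reach all genes. The members' medians are 37.9%, 15.8% and 7.31%. The limits set the members apart from the 1200 genes, so nothing is read from that gap.

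The largest ratio was that of CsaV3_3G016740 (chromosome 3, 12540673 to 12541514, plus strand; the table's description is uncharacterized protein LOC101221214). Its libraries held 362, 370 and 358 FPKM at 0 h, 94.9, 84.8 and 83.3 FPKM at 3 h, 15.76, 15.98 and 16.15 FPKM at 12 h, and 8.92, 4.69 and 4.51 FPKM at 24 h. The 4 durations did not overlap, each lying below the one before. At 24 h its mean was 1.66% of the 0 h mean. From 3 h to 12 h its edgeR log2 fold change was -2.40 ± 0.20 (SE). Its 12 h mean also met the 8-fold limit, so no p is given for this step.

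CsaV3_6G015120 (chromosome 6, 10976098 to 10977090, minus strand) followed the same course from a lower level. It had 52.0, 52.4 and 48.6 FPKM at 0 h, 12.0, 10.6 and 12.6 FPKM at 3 h, 2.93, 1.901 and 1.85 FPKM at 12 h, and 0.920, 0.402 and 0.370 FPKM at 24 h. The 24 h values rest on about 30.03 fragments over the 3 libraries together. Its log2 fold change of 12 h against 3 h was -2.35 ± 0.25 (SE). CsaV3_6G049040 (chromosome 6, 28688668 to 28691130, minus strand) was low early: 72.2, 62.3 and 81.6 FPKM at 0 h, 8.13, 8.10 and 8.24 FPKM at 3 h, 7.03, 4.68 and 3.99 FPKM at 12 h, and 1.46, 1.15 and 1.03 FPKM at 24 h. Most of its difference from 0 h was present at 3 h, where it stood at 11.3% of the 0 h mean. Its 12 h libraries lay below its 3 h libraries, with a log2 fold change of -0.59 ± 0.18 (SE). Both genes met the 8-fold limit at 12 h as well as at 24 h.

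CsaV3_4G005060 (chromosome 4, 3300825 to 3301710, minus strand; no description) was low at 3 h and 12 h and lower still at 24 h. Its libraries held 251, 202 and 253 FPKM at 0 h, 14.5, 7.25 and 11.1 FPKM at 3 h, 10.4, 12.3 and 11.4 FPKM at 12 h, and 6.14, 7.20 and 8.16 FPKM at 24 h. The 12 h and 3 h libraries overlapped (log2 fold change 0.11 ± 0.22, SE), while all 24 h libraries lay below all 12 h libraries (log2 fold change -0.66 ± 0.22, SE). The call of this last step was lost in 5 alternatives. All of its steps join durations that met the 8-fold limit, so no p is given. It lies over an undescribed gene on the opposite strand, CsaV3_4G005050, which averaged 558 ± 49.1 FPKM at 0 h, 314 ± 30.9 FPKM at 3 h, 398 ± 20.02 FPKM at 12 h and 246 ± 68.0 FPKM at 24 h (SD, n = 3 each). The sources used here do not state whether reads of the 2 genes were told apart by strand, so the level of CsaV3_4G005060 is uncertain.

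CsaV3_4G034900 (chromosome 4, 24649361 to 24650015, plus strand), which the table calls similar to the Arabidopsis protein At2g23090, was lower at each later duration. It had 181, 207 and 183 FPKM at 0 h, 101, 86.8 and 102 FPKM at 3 h, 48.2, 51.5 and 46.7 FPKM at 12 h, and 17.5, 20.6 and 15.8 FPKM at 24 h. The durations did not overlap. Its mean fell between 3 h and 12 h by 0.93 ± 0.11 on the log2 scale (SE; adjusted p = 2.45e-05 by edgeR's quasi-likelihood test), a step that leaves out its lowest mean.

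At 12 h, CsaV3_7G031520 and CsaV3_2G016270 stood at 39.2% and 40.3% of their 0 h means, where the members' median was 15.8%. CsaV3_7G031520 (chromosome 7, 19944502 to 19944861, minus strand) carries the KO entry K00558 with the enzyme number EC:2.1.1.37, listed under the KEGG pathway of cysteine and methionine metabolism. It had 148, 142 and 163 FPKM at 0 h, 87.2, 109 and 102 FPKM at 3 h, 67.5, 49.8 and 60.3 FPKM at 12 h, and 4.73, 3.51 and 7.63 FPKM at 24 h. Its 24 h libraries stood far below those of 12 h (log2 fold change -3.48 ± 0.22, SE), the largest such difference among the members. The rule read this low mean, so no p is given. CsaV3_2G016270 had 19.9, 19.6 and 20.6 FPKM at 0 h, 12.1, 9.84 and 9.53 FPKM at 3 h, 7.58, 7.49 and 9.12 FPKM at 12 h, and 1.47, 1.27 and 1.18 FPKM at 24 h. Its 12 h and 3 h means did not differ past the threshold (log2 fold change -0.32 ± 0.13, SE; adjusted p = 0.0525, edgeR).

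Steps between cold durations were tested over all 16432 genes that reached 1 FPKM in 3 or more libraries; all 53 members were among them, and each also reached 1 FPKM in at least 3 cold libraries. The rule read the lowest cold mean, so a step is least bound to it when it joins the 2 durations other than the lowest. In 14 members a second duration also met the 8-fold limit, and for these steps values are given without a p. This division of the members was chosen after their values were seen. Of the 41 members lowest at 24 h, 29 met the limit at 24 h alone. Between 3 h and 12 h, 24 of these 29 fell (82.8%), 1 rose and 4 did not pass the test, where 27.6% of all genes tested were called lower and 27.9% higher. Their median log2 fold change was -1.35, and that of all genes tested was -0.0012. The 29 were sorted by their means at 3, 12 and 24 h, so all genes tested are not a like background. Nothing particular to the members is read from this difference. Described genes under the same limits that met them at 24 h alone fell in 56 of 65 cases (86.2%), with a median of -1.28. Counting all 41 members, 34 were called lower (82.9%) and 2 higher, with a median of -1.40. Of described genes under the same limits that were lowest at 24 h, 73 of 82 were called lower (89.0%). Of other undescribed genes lowest at 24 h, 257 of 554 were called lower (46.4%). Those genes did not meet the limits, so nothing is read from that difference.

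Among members lowest at 24 h, the largest negative fold change of 12 h against 3 h was that of CsaV3_3G006850 (chromosome 3, 6083504 to 6088301, minus strand), annotated as an integral component of membrane. It had 63.2, 60.5 and 69.0 FPKM at 0 h, 44.1, 38.8 and 46.7 FPKM at 3 h, 6.20, 5.07 and 4.19 FPKM at 12 h, and 2.93, 2.86 and 3.87 FPKM at 24 h. Its 12 h libraries lay below its 3 h libraries by a log2 fold change of -3.02 ± 0.15 (SE), and its 12 h mean met the 8-fold limit. It overlaps CsaV3_3G006840 on the opposite strand, an endoglucanase 25-like gene (a cellulase-type enzyme of cell wall formation). That gene averaged 57.9 ± 6.16 FPKM at 0 h, 73.6 ± 0.40 FPKM at 3 h, 38.7 ± 1.28 FPKM at 12 h and 48.7 ± 13.8 FPKM at 24 h (SD, n = 3 each). Whether reads of these 2 genes were told apart by strand is not stated either, so the level of CsaV3_3G006850 is uncertain. CsaV3_3G036120 (chromosome 3, 30122257 to 30124674, plus strand), annotated with transmembrane transport, stood at 74.6% of its 0 h mean at 3 h and at 11.8% at 12 h. It had 46.3, 45.0 and 45.9 FPKM at 0 h, 33.5, 35.2 and 33.6 FPKM at 3 h, 6.10, 5.13 and 4.95 FPKM at 12 h, and 4.04, 2.44 and 1.63 FPKM at 24 h. It fell between 3 h and 12 h by 2.61 ± 0.23 on the log2 scale (SE; adjusted p = 1.88e-06, edgeR).

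Another 24 members were lowest at 24 h as well. They had 0 h means of 20.1 to 122 FPKM and 3 h means of 5.34 to 115 FPKM. Their means were 1.77 to 31.1 FPKM at 12 h and 0.637 to 9.12 FPKM at 24 h. At 12 h against 3 h, 21 of them were called lower and 1, CsaV3_7G004170, higher. Over all 53 members, 46 were called at 12 h against 3 h (40 lower and 6 higher), where 55.5% of all genes tested were called. At 24 h against 12 h, 44 were called, where 51.9% of all genes were: 38 lower, where 27.4% were, and 6 higher, where 24.5% were. At 24 h against 3 h, 51 were called, where 67.6% of all genes were: 44 lower, where 34.1% were, and 7 higher, where 33.6% were. These counts include steps into and out of each member's lowest mean, which the rule read, and nothing is concluded from them about the members. In 29 members both steps in turn were called lower. Another 4 were called higher and then lower, 4 lower and then higher, and 1, CsaV3_2G014240, higher at both steps. These patterns also rest on means that the rule read, and no share of them over all genes tested is given here. Nothing is concluded from them about the members.

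**Figure D3:**
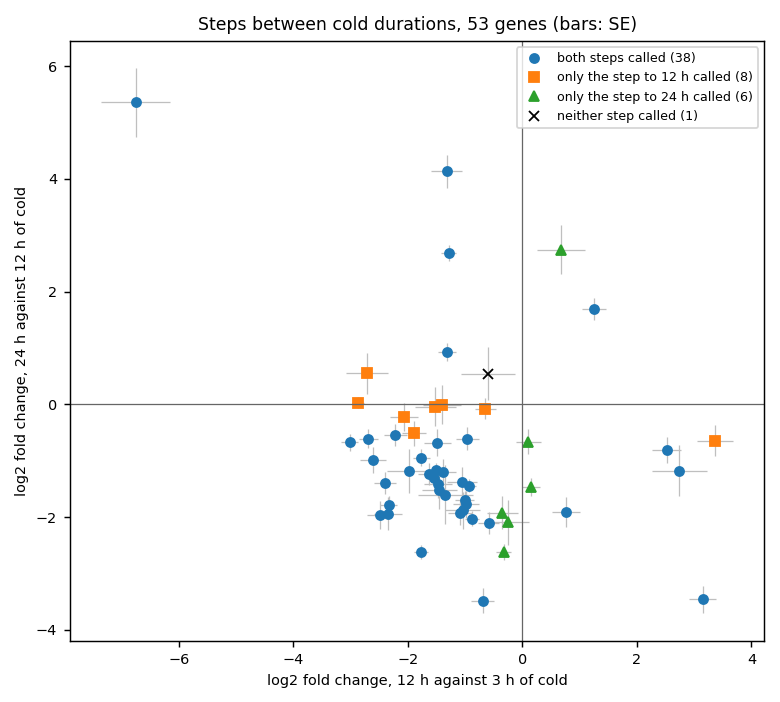
Log2 fold change of 24 h against 12 h (vertical axis) and of 12 h against 3 h (horizontal axis) for the 53 genes, with bars of 1 SE, from the edgeR fit. Markers show which steps were called. At the lower left, 29 genes had both steps called lower, on means that the rule read, so nothing is concluded from their number. The point farthest to the left, CsaV3_1G039040, rests on about 2.68 fragments at 12 h.

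Members that were not on a steady course included the gene of second highest 0 h level. CsaV3_1G014070 (chromosome 1, 9568526 to 9569788, minus strand) was low at 3 h, higher at 12 h and low again at 24 h. Its libraries held 378, 383 and 390 FPKM at 0 h, 16, 16.9 and 14.3 FPKM at 3 h, 119, 150 and 134 FPKM at 12 h, and 18.3, 10.1 and 8.18 FPKM at 24 h. The 12 h libraries lay above all 3 h and 24 h libraries and below all 0 h libraries. Its log2 fold change of 12 h against 3 h was 3.15 ± 0.23 (SE), from a 3 h mean that also met the 8-fold limit. The 1 member that rose in this step among the 29 was CsaV3_7G004170, with a mean of 11.6 FPKM at 12 h against 7.12 FPKM at 3 h.

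CsaV3_3G018150 (chromosome 3, 13914075 to 13916265, minus strand) was the only member whose mean at 3 h exceeded that at 0 h. It had 147, 150 and 148 FPKM at 0 h, 292, 260 and 310 FPKM at 3 h, 79.3, 81.2 and 83.2 FPKM at 12 h, and 11.8, 11.5 and 16.4 FPKM at 24 h. All 3 h libraries lay above all 0 h libraries, and all 12 h and 24 h libraries below them. It fell between 3 h and 12 h by 1.77 ± 0.12 on the log2 scale (SE; adjusted p = 2.19e-07, edgeR).

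**Figure D4:**
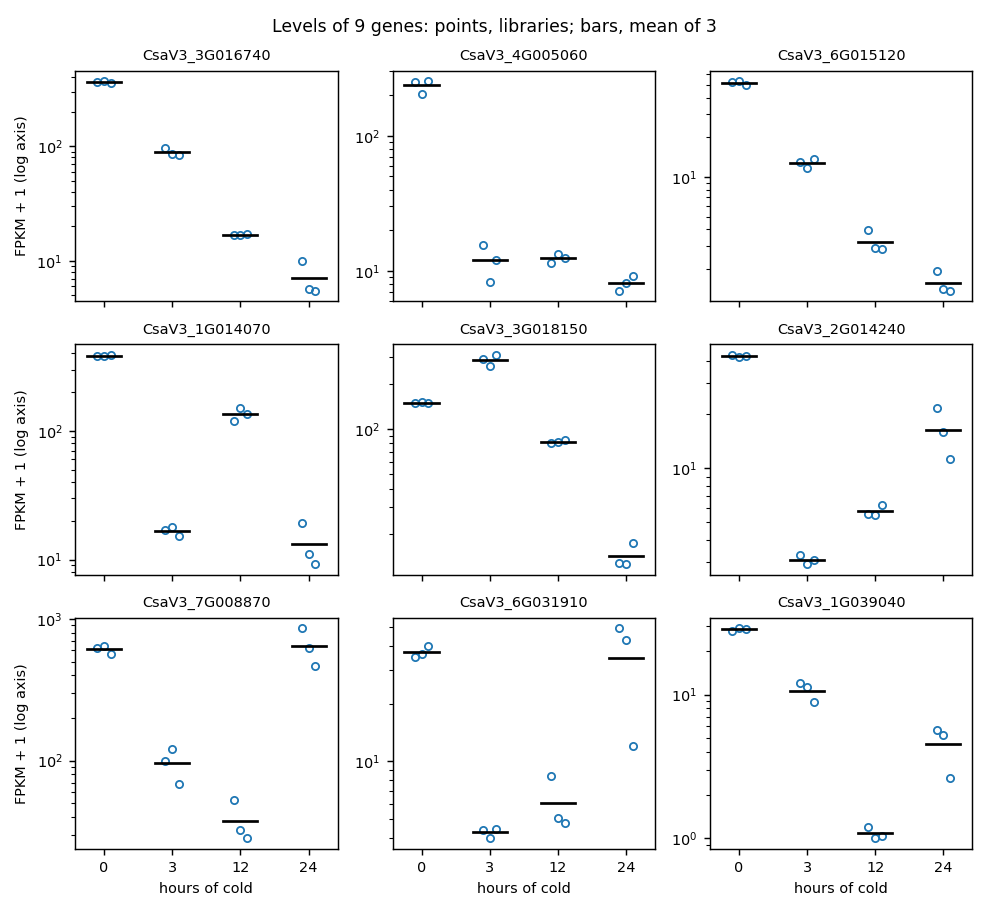
FPKM + 1 on a log axis in each library (points) at 0, 3, 12 and 24 h of cold for 9 members, with the mean of 3 libraries per duration. CsaV3_3G016740 steps down throughout, CsaV3_1G014070 is low at 3 h and 24 h, and CsaV3_7G008870 is low at 3 h and 12 h and back near its 0 h level at 24 h.

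Of the 7 members lowest at 12 h, CsaV3_7G008870 had the highest 0 h level of all members. It spans 171 bp (chromosome 7, 5537559 to 5537729, plus strand), the shortest of the 53. Its libraries held 621, 642 and 560 FPKM at 0 h, 97.9, 120 and 67.7 FPKM at 3 h, 51.5, 31.2 and 27.5 FPKM at 12 h, and 854, 617 and 461 FPKM at 24 h. The 24 h libraries surrounded the 0 h libraries and lay above all those of 3 h and 12 h. Between 24 h and 3 h, a step that leaves out its lowest mean, it rose by 2.82 ± 0.27 on the log2 scale (SE; adjusted p = 1.98e-06, edgeR). CsaV3_7G031790 (chromosome 7, 20174071 to 20175362, minus strand) took the same course in part. It had 163, 174 and 154 FPKM at 0 h, 33.6, 33.3 and 27.6 FPKM at 3 h, 13.7, 13.4 and 10.2 FPKM at 12 h, and 90.4, 78.4 and 70.5 FPKM at 24 h. Its 24 h libraries lay above all 3 h libraries (log2 fold change 1.40 ± 0.13, SE; adjusted p = 1.09e-06, edgeR) and below all 0 h libraries.

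The 5 other members lowest at 12 h were not called higher at 24 h than at 3 h. CsaV3_1G003990 (chromosome 1, 2493649 to 2496928, plus strand) had 160, 162 and 155 FPKM at 0 h, 73.6, 80.7 and 75.6 FPKM at 3 h, 11.1, 9.56 and 9.67 FPKM at 12 h, and 12.0, 10.2 and 8.67 FPKM at 24 h. It was at its low level by 12 h, and its 24 h libraries lay below the 3 h libraries by a log2 fold change of -2.84 ± 0.11 (SE), with the limit met at both 12 h and 24 h. CsaV3_6G013090 averaged 30.8 ± 1.47 FPKM at 0 h, 10.5 ± 0.35 FPKM at 3 h, 1.54 ± 0.29 FPKM at 12 h and 2.25 ± 1.5 FPKM at 24 h (SD, n = 3 each), and it too met the limit at both 12 h and 24 h. CsaV3_1G038820 had 63.9, 21.0 and 9.83 FPKM at 24 h against 34.9, 36.2 and 31.0 FPKM at 3 h, so that the 24 h libraries lay on both sides of the 3 h libraries (adjusted p = 0.931).

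CsaV3_6G009750 (chromosome 6, 7889202 to 7896870, minus strand) is described as a hypothetical protein, but the table gives it zinc ion binding and the KEGG pathway of the plant circadian rhythm. It had 44.7, 40.1 and 44.4 FPKM at 0 h, 5.86, 6.6 and 7.31 FPKM at 3 h, 2.12, 3.07 and 2.42 FPKM at 12 h, and 5.70, 4.75 and 4.03 FPKM at 24 h. All 24 h libraries lay below all 3 h libraries (log2 fold change -0.39 ± 0.15, SE; adjusted p = 0.0347, edgeR), and this call was lost in 6 alternatives, with an adjusted p of up to 0.132 without replicate 3 of 3 h.

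CsaV3_1G039040 (chromosome 1, 24571245 to 24571817, minus strand) had the lowest cold mean of all members. It had 26.9, 27.9 and 27.6 FPKM at 0 h, 10.9, 10.2 and 7.83 FPKM at 3 h, 0.198, 0 and 0.0366 FPKM at 12 h, and 4.69, 4.24 and 1.62 FPKM at 24 h. The 12 h values amount to about 2.68 fragments over the 3 libraries, so no fold change at 12 h is given. Its 24 h libraries lay below its 3 h libraries by a log2 fold change of -1.40 ± 0.40 (SE; adjusted p = 0.00789, edgeR). It lies 592 bp from CsaV3_1G039050 on the same strand, a root phototropism protein 3-like gene, whose Arabidopsis relative acts in the blue-light signalling of phototropins. That described gene met the same limits and had a like course up to 12 h. It had 104, 106 and 91.9 FPKM at 0 h, 23.7, 24.9 and 23.1 FPKM at 3 h, 0.601, 0.495 and 0.464 FPKM at 12 h, and 1.97, 1.79 and 0.848 FPKM at 24 h. At 24 h CsaV3_1G039040 stood at 12.8% of its 0 h mean and CsaV3_1G039050 at 1.53%.

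The 5 members lowest at 3 h stood higher later by the way they were sorted. Their highest mean within the cold came at different times. CsaV3_2G014240 (chromosome 2, 11894235 to 11895717, minus strand), annotated with mediator complex binding and pollen tube guidance, had 42.1, 40.7 and 41.3 FPKM at 0 h, 2.26, 1.91 and 2.06 FPKM at 3 h, 4.55, 4.49 and 5.27 FPKM at 12 h, and 20.7, 15.0 and 10.3 FPKM at 24 h. No durations overlapped, and it rose between 12 h and 24 h by 1.69 ± 0.20 on the log2 scale (SE; adjusted p = 2.58e-05, edgeR). CsaV3_6G031910 (chromosome 6, 18019438 to 18021404, plus strand) had 34.1, 35.4 and 39.1 FPKM at 0 h, 3.42, 2.99 and 3.44 FPKM at 3 h, 7.37, 4.08 and 3.76 FPKM at 12 h, and 48.2, 41.9 and 11.1 FPKM at 24 h. Of its 24 h libraries, 2 lay above all 0 h libraries and 1 below them, and the step from 12 h was a log2 fold change of 2.74 ± 0.43 (SE; adjusted p = 0.000243, edgeR).

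The other 3 were highest within the cold at 12 h. CsaV3_1G009450 (chromosome 1, 5862387 to 5863347, minus strand) had 231, 224 and 332 FPKM at 0 h, 31.5, 24.5 and 27.4 FPKM at 3 h, 186, 180 and 173 FPKM at 12 h, and 161, 49.0 and 28.2 FPKM at 24 h. Its 24 h libraries all lay below those of 12 h but were spread widely (log2 fold change -1.17 ± 0.46, SE; adjusted p = 0.0489, edgeR), and 10 alternatives gave an adjusted p of 0.0515 to 0.16. CsaV3_6G021760, a gene of 202 bp (chromosome 6, 14739141 to 14739342, plus strand), had 85.7, 77.8 and 76.6 FPKM at 0 h, 2.46, 2.06 and 5.33 FPKM at 3 h, 31.1, 36.8 and 31.5 FPKM at 12 h, and 25.8, 23.0 and 14.6 FPKM at 24 h. Its difference between 24 h and 12 h did not pass the test (adjusted p = 0.0702, edgeR). CsaV3_1G008340 averaged 24.9 ± 1.70 FPKM at 0 h, 2.23 ± 0.03 FPKM at 3 h, 12.4 ± 1.01 FPKM at 12 h and 7.05 ± 3.03 FPKM at 24 h (SD, n = 3 each), and fell between 12 h and 24 h (edgeR, adjusted p = 0.0129), a call lost in a fit restricted to these 2 durations (adjusted p = 0.0731).

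Few members carried a term: 11 of 53 (20.8%) had a GO, KEGG or KO entry, against 47.5% of the other undescribed genes at the 0 h level. Besides those above, CsaV3_3G008630 (metal ion transport and binding) had 102, 102 and 102 FPKM at 0 h, 75.1, 76.7 and 72.2 FPKM at 3 h, 25.7, 26.3 and 25.6 FPKM at 12 h, and 14.6, 9.15 and 5.30 FPKM at 24 h. It was nearly equal among libraries until 12 h and spread at 24 h, and it fell between 3 h and 12 h by 1.48 ± 0.25 on the log2 scale (SE; adjusted p = 0.000297, edgeR). CsaV3_7G031710 (regulation of flower development) averaged 52.7 ± 2.34 FPKM at 0 h, 26.1 ± 1.95 FPKM at 3 h, 12.5 ± 1.21 FPKM at 12 h and 3.81 ± 1.16 FPKM at 24 h (SD, n = 3 each), and fell between 3 h and 12 h (edgeR, adjusted p = 0.000285). The rest held entries for protein dimerization, nucleic acid binding, an acyltransferase and an oxidoreductase. Of 25 members whose description carries a LOC number, 24 matched a RefSeq gene of the Cucumber_9930_V3 assembly, and all 24 are listed there as protein coding without a further name.

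That oxidoreductase, CsaV3_3G017980 (chromosome 3, 13682845 to 13686388, plus strand), is called similar to the Arabidopsis protein At4g09670. It had 50.6, 50.0 and 52.2 FPKM at 0 h, 24.1, 23.3 and 26.5 FPKM at 3 h, 7.47, 8.31 and 8.68 FPKM at 12 h, and 3.56, 3.04 and 3.32 FPKM at 24 h. It fell between 3 h and 12 h by 1.54 ± 0.09 on the log2 scale (SE; adjusted p = 4.74e-08, edgeR). Its neighbour on the same strand, 635 bp away, is CsaV3_3G017970, a transcription repressor KAN1-like gene; in Arabidopsis, KANADI1 helps to set the lower side of the leaf. The neighbour averaged 55.7 ± 2.77 FPKM at 0 h, 29.2 ± 1.85 FPKM at 3 h, 8.75 ± 0.36 FPKM at 12 h and 5.53 ± 0.76 FPKM at 24 h (SD, n = 3 each). These were the only 2 members adjacent to a described gene under the same limits, and none was adjacent to another member.

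Many members were short genes. Their median span was 1292 bp (171 to 7669 bp), against 3336 bp for the other undescribed genes at the 0 h level and 2617 bp for the described genes under the same limits. Spans under 500 bp were held by 9 members. Another gene was overlapped by 5 members (9.43%), against 12.3% of the other undescribed genes. Besides those above, CsaV3_4G003050 (means of 51.3 FPKM at 0 h, 7.4 at 3 h, 4.55 at 12 h and 4.3 at 24 h) lies opposite the undescribed CsaV3_4G003040 (42.0, 41.2, 55.2 and 63.6 FPKM at these durations), and CsaV3_3G017980 opposite a GAMETE EXPRESSED 1 gene listed at no more than 0.206 FPKM in any library. Only CsaV3_6G008370 (chromosome 6, 6719915 to 6720415, plus strand; no description) shares its strand with the gene it overlaps, CsaV3_6G008360, an LHY-like gene, whose Arabidopsis relative LATE ELONGATED HYPOCOTYL is a morning component of the clock. CsaV3_6G008370 had 18.8, 23.4 and 21.5 FPKM at 0 h, 17.0, 16.4 and 20.5 FPKM at 3 h, 2.93, 3.31 and 2.98 FPKM at 12 h, and 0.646, 1.15 and 0.533 FPKM at 24 h. The LHY-like gene averaged 555 ± 19.0 FPKM at 0 h, 545 ± 10.7 FPKM at 3 h, 235 ± 7.48 FPKM at 12 h and 142 ± 21.1 FPKM at 24 h (SD, n = 3 each). Reads in the shared stretch could have been given to either gene, so the level of CsaV3_6G008370 is uncertain. The members lay on all 7 chromosomes, at shares of the undescribed genes at the 0 h level that ran from 2.36% on chromosome 3 (6 of 254) to 5.74% on chromosome 6 (12 of 209).

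At the edge of the rule, the members nearest to the limit were CsaV3_1G008340, CsaV3_6G009930 and CsaV3_1G038820, with ratios of 8.02, 8.03 and 8.14. The nearest genes outside it were CsaV3_1G036810, CsaV3_4G032800 and CsaV3_1G040280, with 7.88, 7.83 and 7.82. CsaV3_1G036810 averaged 76.5 ± 15.0 FPKM at 0 h, 119 ± 9.80 FPKM at 3 h, 24.8 ± 0.12 FPKM at 12 h and 8.84 ± 3.11 FPKM at 24 h (SD, n = 3 each). CsaV3_4G032800 averaged 31.1 ± 2.77 FPKM at 0 h, 36.1 ± 3.99 FPKM at 3 h, 3.10 ± 1.10 FPKM at 12 h and 3.83 ± 1.40 FPKM at 24 h. Inside the limit, CsaV3_6G009930, a gene of 316 bp, had 29.1, 37.9 and 25.6 FPKM at 0 h, 12.98, 9.81 and 24.1 FPKM at 3 h, 16.9, 8.78 and 12.5 FPKM at 12 h, and 1.95, 2.79 and 4.17 FPKM at 24 h. Its 3 h and 12 h libraries overlapped widely.

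At 24 h the members' level differed between libraries. Replicate 1 was the highest of the 3 in 34 members and replicate 3 the lowest in 31. These counts were not made over all genes tested, so nothing particular to the members is read from them. The members' FPKM summed to 1498, 1032 and 791 in replicates 1, 2 and 3 of 24 h, or to 645, 415 and 330 without CsaV3_7G008870. Markers of other leaf cells moved over the same hours. The guard cell markers found, SLAC1 and FAMA, summed to 18.4 to 23.4 FPKM at 0 h, 17.1 to 19.4 at 3 h, 14.1 to 18.5 at 12 h and 6.39 to 7.51 at 24 h, and both fell between 12 h and 24 h (edgeR). Epidermal markers summed to 521 to 763 FPKM at 0 h, 348 to 399 at 3 h, 289 to 354 at 12 h and 147 to 237 at 24 h; of 10 tested, 3 were called lower and 1 higher at 12 h against 3 h, and 4 lower and 1 higher at 24 h against 12 h. Phloem markers summed to 276 to 493 FPKM at 0 h, 310 to 482 at 3 h, 357 to 562 at 12 h and 504 to 1364 at 24 h. Of 8 tested, 3 were called lower and 1 higher at 12 h against 3 h, and 1 lower and 6 higher at 24 h against 12 h. Of the 12 found, 1 was at 0 in all libraries. Mesophyll markers fell late as well: of 23 tested, 3 were called lower and 15 higher at 12 h against 3 h, and 21 lower and 0 higher at 24 h against 12 h. The part of these cell types and of single libraries in the members' levels was not tested.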

How the data were processed

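The 12 leaf RNA libraries were grouped by the duration of cold in their labels. The submitters' processing notes name cutadapt 1.9 (adapter trimming) and FastQC (read quality). Per the series design text, reads were aligned with HISAT2 to the CuGenDB cucumber genome. The sources used here give no counter, annotation, genome build or strand setting, and coordinates are whole-gene spans as deposited. FPKM values and whole-number estimated counts were made by the authors and deposited in 1 table, per the file headers. A value of 0.0001 FPKM, which stood for all 61048 estimated counts of 0, was read as 0. Low estimated counts lie near multiples of 3.73, so a unit is not a fragment. Fragment numbers given here are units divided by 3.73, a spacing whose estimation was revised after a first version gave another value, and they limit precision by counting error only.

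Members were found by the stated limits on mean FPKM. The members, lists and named genes were chosen with earlier results of these data known. Named genes are the 6 of highest 0 h mean, the 6 of largest ratio, the 3 of largest ratio lowest at each duration, 3 on each side of the ratio limit, the 3 largest called rises and falls per step, up to 8 with a term by 0 h mean, and up to 6 pairs with a neighbour under the same limits. CsaV3_7G004170, CsaV3_7G031790, CsaV3_6G013090 and genes overlapped by a member were added after their values were seen. Steps between cold durations were tested two-sided with edgeR 4.0.16 (R 4.3.3) by its quasi-likelihood test on the estimated counts, with TMM scaling, in 1 fit over 12 libraries with a mean per duration. A gene was tested if it reached 1 FPKM in 3 or more libraries (16432 genes, with 99.8% of the counts). Calls had a Benjamini-Hochberg adjusted p under 0.05 over all genes tested. The biological coefficient of variation was 17.2%. P-values rest on the spread of these libraries alone, and that spread may be technical. Alternatives used DESeq2 1.42.0, limma 3.58.1, other scalings, filters and limits, and each library left out. The test was tried on simulated data. Same-numbered libraries of different durations did not deviate together.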

Additional observations from a re-analysis of the deposited data

How the results depend on the processing

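The number of members depended on the limits. It was 53 as reported, 16 with a pseudocount of 5, 34 with a 0 h mean of at least 40 FPKM, 155 with a ratio of at least 4 and 12 with a ratio of at least 16. Leaving out 1 library at a time gave 47 to 59 members. Of the 41 members lowest at 24 h, 2 were called higher at 12 h against 3 h, 1 when a change of at least 2-fold was also asked, 1 among members past the limit at 24 h alone, and 1 to 3 when a library was left out. The count called lower in that step was 34, and 27 with at least 2-fold. It was 24 among those past the limit at 24 h alone, and 32 to 34 when a library was left out. Over all genes tested, 27.6% were called lower in that step, 9.69% with at least 2-fold and 23.7% to 25.2% without 1 library. Called higher were 27.9%, 9.46% and 24.2% to 25.4%. Of the 7 lowest at 12 h, 4 were called lower at 24 h against 3 h. The count was 2 among those past the limit at 12 h alone, and 3 to 5 when a library was left out. Over all genes tested, 34.1% were called lower at 24 h against 3 h, and 31.2% to 34.4% without 1 library. Of the 5 lowest at 3 h, 2 were called lower at 24 h against 12 h, 1 with at least 2-fold, DESeq2 size factors, library totals, a mean of at least 5 FPKM or DESeq2, 0 with only those 2 durations fitted, and 1 to 3 when a library was left out. These counts by lowest duration were chosen after seeing the data.

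Of 281 alternatives for counts, 259 stayed within 1.5 times the reported count. For 73 called steps of single genes, 1135 of 1168 alternatives kept the direction and the call, 33 lost the call and 0 turned the direction. Steps that were not called did not enter, and the 73 include steps into or out of a lowest mean that the rule read. For CsaV3_4G005060, the fall between 3 h and 24 h (log2 fold change -0.55) was lost in 9 alternatives, and without replicate 1 of 3 h it was -0.31. The causes were not tested. Replicate numbers did not pair the libraries (18 pairs, r from -0.07 to 0.09). With a replicate block, 46 members were called at 12 h against 3 h and 44 at 24 h against 12 h. At 24 h against 3 h, 49 were called. Without the block, the counts were 46, 44 and 51. Of all genes tested, 54.3%, 50.8% and 66.9% were called with the block, and 55.5%, 51.9% and 67.6% without it.

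Depth limited the lowest values, since 2 members rest on fewer than 20 fragments over the 3 libraries of their lowest duration. The wide spread of the 24 h libraries limits what the steps to 24 h can show.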

Other observations

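Among the 1253 undescribed genes at or above 20 FPKM at 0 h, the share that met the limits differed with the gene's span and annotation. It was 9 of 80 genes (11.2%) with a span under 500 bp, 26 of 276 (9.42%) from 500 bp to under 2000 bp and 18 of 897 (2.01%) at 2000 bp or more. Described genes at the same level had 2 of 29 (6.9%), 26 of 468 (5.56%) and 66 of 3055 (2.16%) in these classes of span. Undescribed genes without a GO, KEGG or KO entry met the limits in 42 of 672 cases (6.25%), and those with one in 11 of 581 (1.89%). Of the 32 with a blank description, 4 did (12.5%). No test was made of these shares.

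Members close to each other on a chromosome did not always share a course. CsaV3_1G008310 and CsaV3_1G008340 lie 12.0 kb apart. CsaV3_1G008310 averaged 29.9 FPKM at 0 h, 11.5 at 3 h, 4.04 at 12 h and 1.39 at 24 h, while CsaV3_1G008340 was lowest at 3 h. CsaV3_7G031710 and CsaV3_7G031790 lie 88.0 kb apart, and they were lowest at 24 h and at 12 h.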
